A study of Caenorhabditis elegans with 2 samples.

Results

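The heterochronic genes set the order of developmental events in the larvae of Caenorhabditis elegans, and 9 of their core regulators were examined for binding of GEI-8, a nuclear protein related to the corepressors NCoR and SMRT of vertebrates. The genes were listed by name (lin-14, lin-28, hbl-1, lin-46, lin-41, lin-29, lin-42, daf-12 and dre-1), and all 9 were found among the 19973 nuclear protein-coding genes of the annotation. Every peak was taken whose summit lay between 5000 bp upstream of the annotated 5′ end and the gene end, an interval called the window of the gene here. The data are chromatin immunoprecipitation with sequencing (ChIP-seq) of 1 group with 2 biological replicates. Both replicates were whole worms of strain OP589, of mixed sex, collected as L4 larvae at 48 hours after release from starvation as first-stage larvae. The strain carries the mutation unc-119(tm4063) and the integrated transgene wgIs589, which holds gei-8 with TY1, EGFP and 3xFLAG tags beside an unc-119 rescue gene. Tagged protein was precipitated with an antibody to GFP. Each value is therefore an average over all tissues, taken from a tagged copy of GEI-8 in 1 transgenic line, and no untagged strain, mutant or other stage was analysed here.

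In the heterochronic pathway, early factors hold cells in larval programs until microRNAs lower them, and late factors then allow the adult program of the epidermal seam cells. The early factors include LIN-14, a nuclear DNA-binding protein, LIN-28, an RNA-binding protein that blocks maturation of let-7, and HBL-1, a zinc finger protein related to fly Hunchback. LIN-46 opposes HBL-1. LIN-41, a TRIM-NHL protein, is lowered by let-7, and LIN-29, a zinc finger transcription factor, drives the switch to the adult epidermis. LIN-42 is the worm relative of the Period proteins and acts with the molting cycle, DAF-12 is a nuclear hormone receptor for dafachronic acids, and DRE-1 is an F-box protein that marks other proteins for destruction. At the L4 stage the let-7 branch and LIN-29 are active.

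The deposited files hold peak lists and no reads, so the depth of the libraries is unknown. A list of 1053 peaks passed the authors' irreproducible discovery rate (IDR) threshold, and these are called reproducible. A relaxed list of 30000 peaks was given for each replicate and for both pooled, and the relaxed lists reach far into background, with a median q-value of 0.659 in the pooled list. The value that orders peaks is the authors' own signal per peak, and it is comparable between lists only by rank, with rank 1 the strongest. All positions are in build ce11, which is WBcel235. The 2 replicate lists were called against the same control, so they are not fully independent.

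Reproducible summits lay in the windows of 5 of the 9 regulators, namely lin-14, lin-28, lin-41, lin-42 and daf-12. This is 55.6%, against 7.29% of all protein-coding genes (1457 of 19973). The windows of lin-29, hbl-1, lin-46 and dre-1 held none. Long genes have long windows, so each regulator was also set beside all other protein-coding genes whose length was within 20% of its own. Reproducible summits lay in the windows of 8.23% of these 10681 genes as one set, and of 12.5% when the 9 regulators were weighted equally (5.6% for the length of lin-46 to 19.6% for that of daf-12). On the regulator's own chromosome the equally weighted share was 17.4% (4.25% for lin-46 to 41.7% for daf-12). In the stronger 50% of the reproducible list the count was 2, lin-28 and lin-42, against 3.9% of all protein-coding genes. The genes were listed by name with earlier results of these data known, so these shares are a description and carry no test.

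The reproducible summits of the regulators were placed by the annotation. Of the 6 reproducible summits in the 9 windows, 4 were in introns, 1 (at lin-42) was inside a non-coding RNA gene annotated within the gene, and 1 (at lin-41) was intergenic. Most of the sequence in these windows was gene body, so no share over the whole genome is set beside these counts. One regulator, lin-28, had a reproducible summit between 1000 bp upstream and 200 bp downstream of an annotated transcript start (1 of 9, or 11.1%, against 2.37% of all protein-coding genes). The comparison was not matched for the number of different starts, which ran from 1 at lin-46 to 9 at daf-12. This lin-28 summit is 1 of the 4 in introns. For each of the 6 summits the nearest tRNA or snoRNA gene was at least 7635 bp away.

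**Figure D1:**
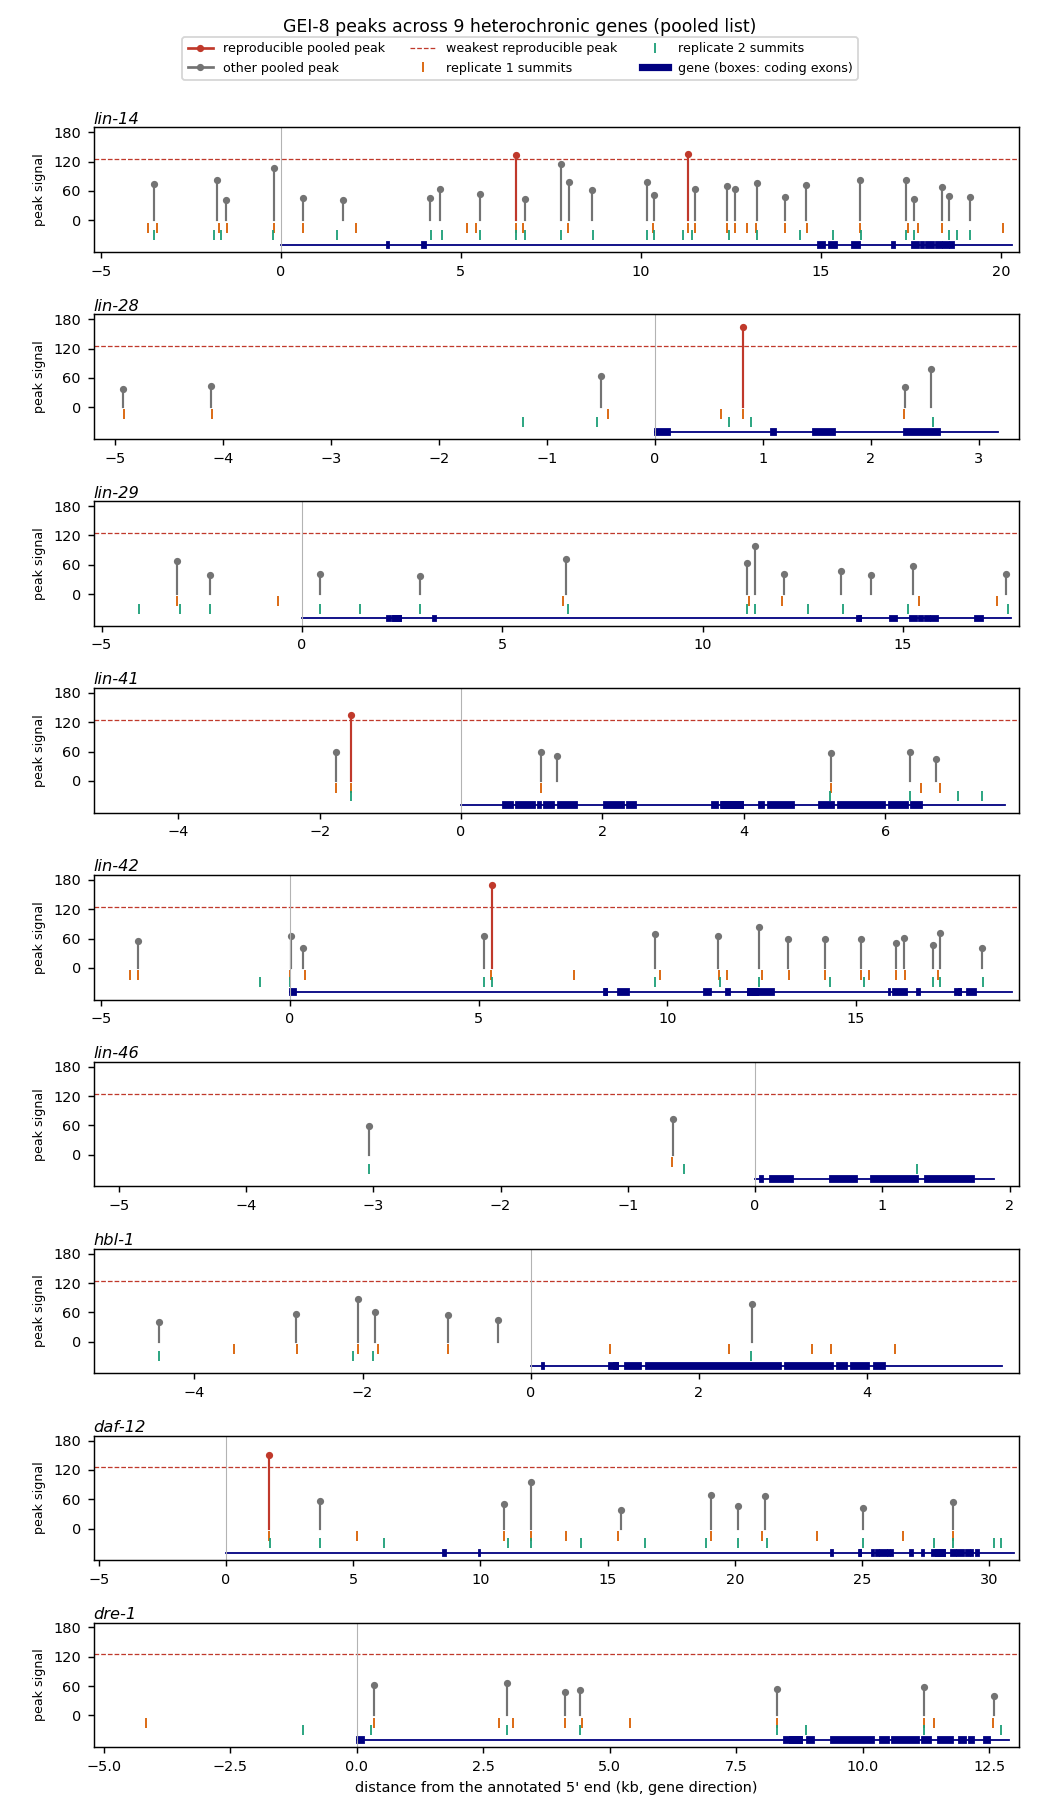
Pooled peaks in the windows of the 9 regulators. The x axis is the distance from the annotated 5′ end in kb along the gene, and the y axis is the authors' signal in the pooled list. Red stems are reproducible peaks, grey stems are other pooled peaks, the dashed line is the weakest reproducible peak, orange and green ticks are the summits of replicates 1 and 2, and blue boxes are coding exons. The tall stems of lin-14, lin-28, lin-42 and daf-12 lie inside the genes and that of lin-41 lies upstream, and lin-14 carries 29 stems.

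The DNA at the reproducible summits is shown for the regulators on chromosomes X and II that had such a summit. The strongest pooled peak of each of these genes is among the summits shown. The summits were not selected by strength, and those shown are not the strongest of the 9 regulators as a set. Each line gives the pooled summit base and 100 bp on either side, on the plus strand of ce11 as held in the RefSeq copy of the genome. At the stronger lin-14 peak the replicate 2 summit lay 137 bp from the pooled one, outside the letters shown. Capitals mark matches on either strand to 6 hexamers. They were AGGTCA (the general nuclear receptor half-site), AGTGCA (the half-site known for DAF-12), the related hexamer AGTTCA, the purine repeat GAGAGA, the E-box CACGTG, and TGATAA, which is the core of sites for the worm's zinc finger factors of the intestine and epidermis. The lines are the stronger lin-14 summit (chrX:11476758-11476958), the other lin-14 summit (chrX:11472003-11472203), lin-42 (chrII:1246906-1247106) and daf-12 (chrX:10637502-10637702).
lin-14 stronger summit: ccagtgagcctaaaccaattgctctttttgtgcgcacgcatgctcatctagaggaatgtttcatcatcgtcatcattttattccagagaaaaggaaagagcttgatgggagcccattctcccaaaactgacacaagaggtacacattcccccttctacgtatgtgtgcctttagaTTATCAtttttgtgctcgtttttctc
lin-14 other summit: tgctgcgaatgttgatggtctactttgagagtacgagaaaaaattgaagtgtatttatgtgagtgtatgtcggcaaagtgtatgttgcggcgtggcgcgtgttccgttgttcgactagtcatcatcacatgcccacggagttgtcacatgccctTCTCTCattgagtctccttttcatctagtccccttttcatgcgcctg
lin-42: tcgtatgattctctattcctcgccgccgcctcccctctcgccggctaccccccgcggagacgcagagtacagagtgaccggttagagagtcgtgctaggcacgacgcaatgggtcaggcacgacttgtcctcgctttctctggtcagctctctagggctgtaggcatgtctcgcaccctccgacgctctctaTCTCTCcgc
daf-12: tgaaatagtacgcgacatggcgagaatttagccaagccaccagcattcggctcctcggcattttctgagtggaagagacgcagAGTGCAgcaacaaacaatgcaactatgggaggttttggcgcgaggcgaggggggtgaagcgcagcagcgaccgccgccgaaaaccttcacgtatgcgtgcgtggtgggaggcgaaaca

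GAGAGA, or its complement TCTCTC, was the hexamer shared by most of these summits. It was present at 4 of the 6 reproducible summits of the regulators (the other lin-14 summit, lin-28, lin-41 and lin-42), with 3 copies at lin-28, of which 2 overlapped. Windows of the same length around all 1053 reproducible summits held it in 36.6% of cases and those around all 30000 relaxed pooled summits in 16.8%. AGTGCA occurred at the daf-12 summit alone among the 6 and in 8.93% of all reproducible and 8.57% of relaxed windows. AGGTCA occurred at the lin-28 summit alone among the 6 (5.79% of reproducible and 5.88% of relaxed windows), and TGATAA at the stronger lin-14 summit (17.9% and 16.8%). AGTTCA and CACGTG were not found in the 6 windows, and were found in 10.5% and 13.7% of all reproducible windows. A match says only that the letters are there. The G and C content was 61.2% at lin-42 and 56.7% at daf-12, above the upper quartile of 49.8% over all reproducible summits, and between 42.8% and 46.8% at the other 4, near the median of 45.3%.

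Among the early regulators, lin-14 (WBGene00003003, X, 11465560 to 11485871, plus strand) had the densest peaks and was the only one of the 9 with 2 reproducible summits. The stronger of these lay in an intron 11298 bp inside the gene (peak 11476633 to 11477082) and 3503 bp upstream of the start of the shorter transcript. Its pooled signal was 135, at rank 849, and the overlapping peaks were ranked 453 in replicate 1 and 2636 in replicate 2, so the site was among the 1053 strongest of replicate 1 alone. The other lay in an intron 6543 bp inside the gene (11471878 to 11472327), with a pooled signal of 133 at rank 881, with the opposite lean (1435 and 786 in replicates 1 and 2). The next peaks fell just short of the reproducible list, at pooled rank 1319 in an intron (q-value 0.0171) and at rank 1663, 191 bp upstream of the 5′ end (11465144 to 11465593, ranked 2402 and 1774 in replicates 1 and 2).

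The lin-14 window of 25312 bp held 29 relaxed pooled summits, 25 of them in the gene body, and 26 summits in each replicate list. The 216 protein-coding genes of similar length had a median of 6 pooled summits and a maximum of 27, so none had as many as lin-14. In each replicate list 1 of the 216 had more than lin-14. Among all 19973 protein-coding genes, 3 had more pooled summits, and 7 had more in each replicate list. Per length, lin-14 had 11.5 pooled summits per 10 kb, against a median of 2.85 over the 998 genes of at least 10 kb, of which 4 were denser. Most of the 29 peaks were weak, with a median rank of 8680 and 10 within the first 5000, but 24 of them overlapped a peak in both replicate lists. Neighbouring peaks can overlap and share a replicate peak, so overlapping pooled peaks were also merged into regions (this count was added once the peaks had been looked at). The lin-14 window held 20 such regions, and 1 of the 216 genes of similar length and 8 of all genes held more.

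**Figure D2:**
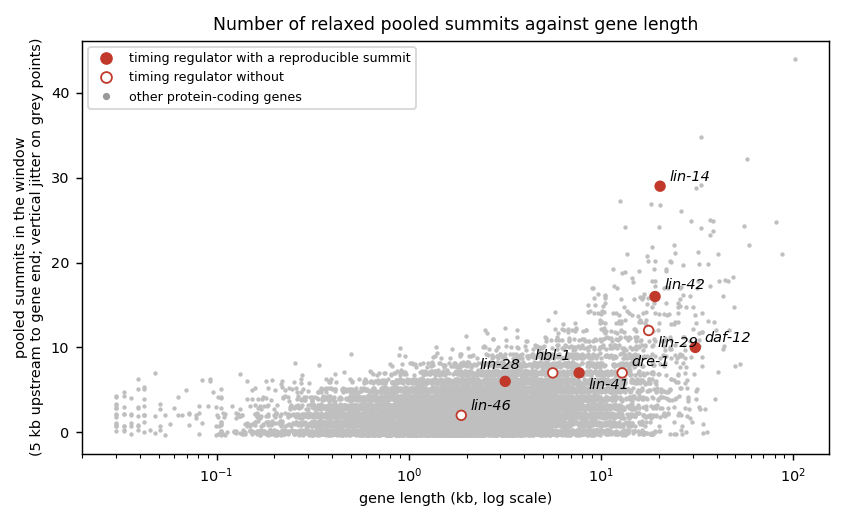
Relaxed pooled summits per window (y axis) against gene length in kb on a log scale (x axis). Grey points are other protein-coding genes with vertical jitter, filled red circles are the 5 regulators with a reproducible summit and open circles the other 4. With 29 summits lin-14 lies above the genes of its length, while daf-12, the longest of the 9 at 30968 bp, has 10.

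The clearest single site of an early regulator was at lin-28 (WBGene00003014, I, 8407630 to 8410804, minus strand). Its summit lay in an intron 819 bp inside the gene, and 65 bp upstream of the annotated start of the shorter transcript F02E9.2b (peak 8409760 to 8410209). The pooled signal was 164 at rank 513 with a q-value of 0.000711, the smallest in the list and also the median of the reproducible peaks, and the peak was ranked 371 in replicate 1 and 995 in replicate 2. It was thus among the 1053 strongest in both replicates, which held for 2 of the 6 reproducible summits of the regulators. The next peak, in a coding exon, was far weaker at rank 4386. In all, lin-28 had 6 pooled summits and 6 and 5 in replicates 1 and 2, against a median of 2 over the 3086 genes of similar length, 3.82% of which had a better ranked strongest peak than lin-28.

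At hbl-1 (WBGene00001824, X, 5822142 to 5827755, plus strand) the replicates differed in where the strongest signal lay. In replicate 1 it was 988 bp upstream of the 5′ end at rank 3214, and in replicate 2 it was 2627 bp inside the gene at rank 1613. The strongest pooled peak was at neither place. It lay 2053 bp upstream inside the non-coding RNA gene F13D11.20 (5819864 to 5820313, signal 87.1, rank 3034, q-value 0.142) and was ranked 10107 and 2243 in replicates 1 and 2. The number of summits varied as much as at lin-29 and more than at the other genes, with 7 pooled summits, 10 in replicate 1 and 4 in replicate 2 (7.0 ± 4.24 over the replicates, SD, n = 2).

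The window of lin-46 (WBGene00003031, V, 12968855 to 12970730, plus strand), the shortest gene of the set, held 2 weak pooled summits, both upstream. The stronger, 648 bp upstream (12967982 to 12968431), had a signal of 73.9 at pooled rank 5298, and its ranks were 12444 and 4424 in replicates 1 and 2. It lay nearer to the 5′ end of R186.8, at 225 bp. Genes of similar length had a median of 2 pooled summits as well.

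Of the late regulators, lin-41 (WBGene00003026, I, 9334800 to 9342496, minus strand) had a reproducible summit in intergenic DNA 1560 bp upstream of its 5′ end (9343831 to 9344280), and no other protein-coding 5′ end lay nearer. The signal was 135 at rank 852 in the pooled list, next to the stronger lin-14 summit at rank 849. The replicates placed the summit within 5 bp of the pooled summit and ranked the peak 754 in replicate 1 and 1680 in replicate 2. The gene body held no peak of that strength, and its best pooled rank was 11122.

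The strongest peak at lin-29 (WBGene00003015, II, 11917642 to 11935343, minus strand) was outside the reproducible list. It lay in an intron 11306 bp inside the gene (11923812 to 11924261), with a signal of 98.5, pooled rank 2059 and a q-value of 0.0469, and was ranked 2869 and 1725 in replicates 1 and 2. The sequence at this summit (chrII:11923937-11924137, plus strand) holds many copies of TTAGGC, the unit of the worm's telomere repeat. It is shown because of that repeat, with all letters in lower case since none of the 6 hexamers matched.
lin-29 strongest summit: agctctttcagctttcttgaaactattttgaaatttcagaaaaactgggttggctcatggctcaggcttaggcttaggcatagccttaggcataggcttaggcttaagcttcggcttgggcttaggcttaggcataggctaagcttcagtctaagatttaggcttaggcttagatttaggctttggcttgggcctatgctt

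TTAGGC was searched on both strands after this sequence was seen. There were 9 copies within 100 bp of that lin-29 summit, and 7, 12 and 13 copies at 3 other pooled summits of lin-29 (ranks 8509, 29273 and 26022). At least 9 copies were found around 0.23% of all 30000 relaxed pooled summits (69) and around 0 of the 1053 reproducible ones, which allows a share of up to 0.285% there. Outside lin-29, the highest number at a pooled summit of the 9 genes was 3, at lin-42. The part of repeated sequence in the lin-29 signal was not tested.

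The strongest peak of the whole set was at lin-42 (WBGene00018572, II, 1233236 to 1252359, minus strand). Its summit lay 5353 bp inside the gene, within F47F6.13, a non-coding RNA gene that the annotation places there, and 2971 bp upstream of the nearest annotated lin-42 transcript start (peak 1246781 to 1247230). The signal was 169 at pooled rank 479, the q-value was 0.000711, and the ranks were 380 and 878 in replicates 1 and 2, with summits 17 bp and 0 bp from the pooled one. This is the other summit that was among the 1053 strongest of both replicates. No other lin-42 peak came near it, and the next was at rank 3526, 171 bp inside the transcript F47F6.1e in a coding exon. There were 16 pooled summits, 15 of them in the gene body, with 17 and 12 in replicates 1 and 2, against a median of 6 over the 239 genes of similar length, of which 18 had more.

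In the hormone branch, daf-12 (WBGene00000908, X, 10635908 to 10666875, plus strand) had 1 reproducible summit, in an intron 1694 bp downstream of its 5′ end (10637377 to 10637826). The signal was 150 at pooled rank 640 with a q-value of 0.000711, and the peak was ranked 495 in replicate 1 and 1197 in replicate 2. A second peak in an intron 11998 bp inside the gene had pooled rank 2227, with ranks of 2113 and 9603 in replicates 1 and 2. Although daf-12 was the longest gene of the set, its 10 pooled summits, all in the gene body, were close to the median of 9 over the 92 genes of its length. Replicates 1 and 2 gave 11 and 15 summits, against a median of 9 in each, and 33 and 22 of the 92 genes had more. Of these 92 genes, 19.6% had a reproducible summit (5 of the 12, or 41.7%, on chromosome X).

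The dre-1 gene (WBGene00001089, V, 6533614 to 6546500, minus strand) had the lowest best pooled rank of the 9, although in replicate 1 that of lin-46 was lower (12444, against 5706 for dre-1). The strongest pooled peak at dre-1 lay in an intron 2975 bp inside the gene (6543300 to 6543749), with a signal of 66.4 and pooled rank 7598, and its ranks were 5706 and 29980 in replicates 1 and 2. The best peak of replicate 2 in this window was at rank 14223. Of the 554 genes of similar length, 61.2% had a better ranked strongest pooled peak than dre-1.

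**Figure D3:**
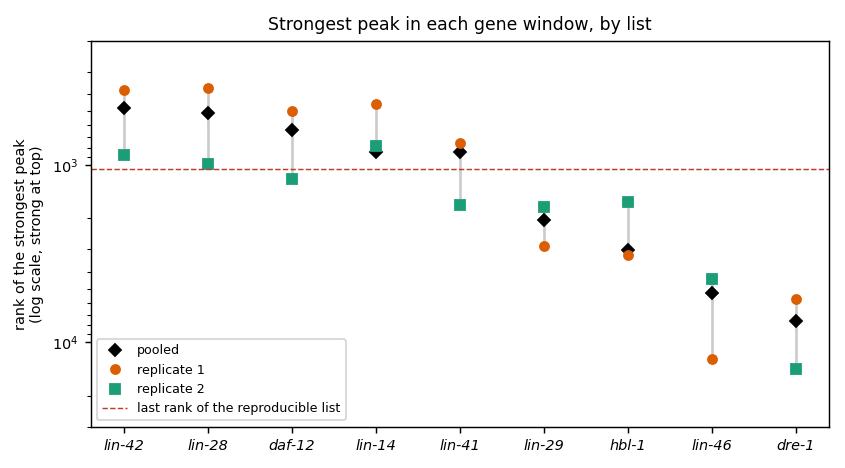
Rank of the strongest peak in each window (y axis, log scale, strong at the top) for the 9 regulators ordered by pooled rank (x axis). Black diamonds are the pooled list, orange circles replicate 1, green squares replicate 2, and the dashed line is rank 1053; the 3 marks of a gene can be different peaks, as at hbl-1. The regulators with a reproducible summit rank higher in replicate 1 than in replicate 2, as does dre-1, and lin-29, hbl-1 and lin-46 rank higher in replicate 2.

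The ranks put lin-42 and lin-28 first (479 and 513 in the pooled list), then daf-12 (640), then lin-14 and lin-41 (849 and 852), followed by lin-29 (2059), hbl-1 (3034), lin-46 (5298) and dre-1 (7598). Many neighbours in this order do not separate by the range of their best ranks in the replicates. The ranges of lin-42 (380 and 878 in replicates 1 and 2), lin-28 (371 and 995) and daf-12 (495 and 1197) overlap. They also overlap those of lin-14 (453 and 786) and lin-41 (754 and 1680), which overlap each other. So do the ranges of lin-29 (2869 and 1725) and hbl-1 (3214 and 1613), and of lin-46 and dre-1. Those of lin-41 and lin-29 do not overlap, nor do those of hbl-1 and lin-46 (12444 and 4424). In both replicates lin-42 and lin-28 ranked ahead of daf-12, and daf-12 ahead of lin-41. The replicate 2 rank of hbl-1 reaches that of lin-41. The best ranks of lin-14 are those of its 2 different sites, and its stronger pooled site was ranked 2636 in replicate 2. The median of the 9 best pooled ranks was 852, against 7903 over the 15592 protein-coding genes (78.1% of all) with any pooled summit in the window. That comparison was not matched for length. Over genes of similar length with a pooled summit, the median was 3711 for the length of daf-12 to 9218 for that of lin-46. Of all genes of similar length, 3.82% (for lin-28) to 61.2% (for dre-1) had a better ranked strongest peak.

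At the genes with a reproducible summit, replicate 1 gave the stronger ranks. Summits among its 1053 strongest peaks lay in the windows of 5 regulators, the same genes as in the reproducible list (against 7.33% of all protein-coding genes), and those of replicate 2 in the windows of 3, lin-14, lin-28 and lin-42 (against 7.35%). Of the 6 reproducible summits, 5 were ranked higher in replicate 1 than in replicate 2, while this held for 51.5% of the 1044 reproducible peaks that both replicate lists matched. In the 1053 strongest of both replicates were 2 of the 6 (33.3%), against 650 of all 1053 (61.7%). The pooled ranks of the 6 ran from 479 to 881. Over all relaxed pooled peaks, 67 of the 96 in the 9 windows (69.8%) overlapped a peak in both replicate lists, against 58.3% of all 30000.

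**Figure D4:**
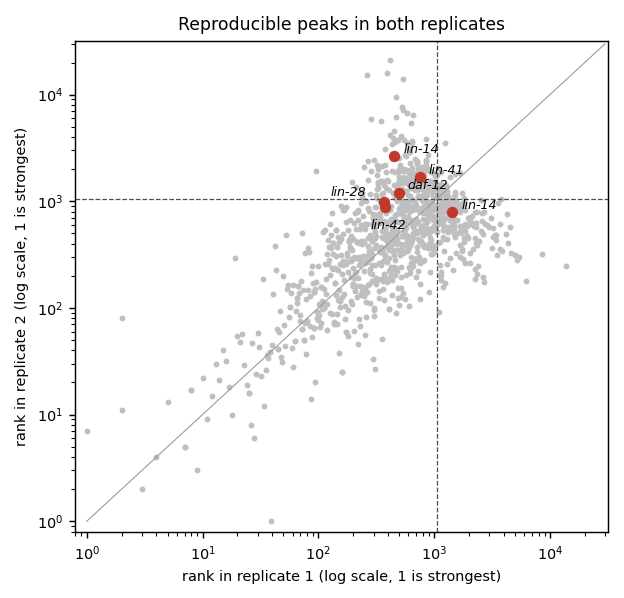
Rank in replicate 1 (x axis) against rank in replicate 2 (y axis), both log scales with 1 the strongest, for the 1044 reproducible peaks matched in both replicates (grey) and the 6 in windows of the regulators (red, named). Dashed lines mark rank 1053 and the diagonal marks equal rank; the lin-28 and lin-42 peaks are inside both dashed lines, and 5 of the 6 red points are above the diagonal.

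Per length, the windows of the 9 regulators held 5.84 relaxed pooled summits per 10 kb, against 3.1 in the windows of all protein-coding genes. The replicate lists gave 5.66 ± 0.172 for the regulators and 3.1 ± 0.0284 for all genes (SD, n = 2). Each list was limited to 30000 peaks and the control was shared, so this spread is not a full measure of variation between biological replicates. The regulators themselves ran more widely. Much of the difference came from lin-14, and without that gene the regulators had 4.82 pooled summits per 10 kb. Of the 96 pooled summits, 55 were in introns, 18 in coding exons, 15 in intergenic DNA, 5 in 3′ UTRs and 3 in RNA genes or pseudogenes. Most of the sequence in these windows was gene body, and no share over all pooled peaks was computed, so these counts are a description only. The lowest pooled values were those of daf-12 (2.78 per 10 kb), lin-46 (2.91) and dre-1 (3.91), followed by lin-29 (5.29), lin-41 (5.51), hbl-1 (6.6), lin-42 (6.63), lin-28 (7.34) and lin-14 (11.5). The replicate lists did not keep this order. Their mean was 5.31 at dre-1, above 4.4 at lin-29 and 4.33 at lin-41, and 3.61 at daf-12, above 2.91 at lin-46.

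The rest of the timing pathway was read from a list of 32 genes, also chosen with earlier results known. Reproducible summits lay in the windows of 10 of its 26 protein-coding genes (38.5%, against 7.29% of all protein-coding genes). This comparison was not matched for length. The 10 genes ran from 3421 bp (ain-1) to 21764 bp (sea-2), against a median of 2027 bp over all protein-coding genes. Of the 5 microRNA genes 1 had a reproducible summit (against 8.81% of all 261 miRNA genes). It was mir-84, a let-7 family member, with a peak 2304 bp upstream (X, 16024557 to 16025006, pooled rank 318, ranks 455 and 283 in replicates 1 and 2). The best pooled ranks of lin-4 (1882), mir-48 and mir-241 (2778, the same peak) and let-7 (6673) were outside the reproducible list.

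The microRNA cofactor genes nhl-2, puf-9 and ain-1 had the strongest peaks of the pathway, at pooled ranks 8, 62 and 74, so the pathway's strongest signal was not at the 9 core regulators. The nhl-2 summit, 820 bp upstream in an RNA gene or pseudogene, was nearer to the 5′ end of tag-340, at 603 bp. The puf-9 summit, 315 bp upstream, was also in an RNA gene or pseudogene. The other microRNA machinery genes alg-1, alg-2, ain-2 and dcr-1, which encode Argonaute proteins, a GW182-family protein and Dicer, had none. In the hormone branch din-1, which encodes the corepressor partner of DAF-12, had 2 reproducible summits, the stronger 673 bp upstream inside an RNA gene or pseudogene (II, 11634057 to 11634506, pooled rank 503, ranks 258 and 1011 in replicates 1 and 2). A tRNA or snoRNA gene was 943 bp away. The genes daf-9, daf-36, ncr-1 and strm-1 had none.

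The 10 other timing genes include lep-5, which is not protein-coding. Of the 10, 7 had a reproducible summit (70.0%, against 7.29% of all protein-coding genes, without matching for length). They were lep-2 (pooled rank 506), which encodes a relative of the Makorin proteins, kin-20 (532), a casein kinase 1 gene that acts with lin-42, myrf-1 (538), a membrane-bound transcription factor gene, lep-5 (814), a long non-coding RNA gene for whose class no share was computed, mab-10 (846), which encodes the NAB-type cofactor of LIN-29, sea-2 (930) and lin-66 (1032). Summits lay close to the 5′ end at mab-10 (198 bp upstream), myrf-1 (253 bp upstream), lin-66 (386 bp upstream) and lep-2 (854 bp upstream), and in introns at kin-20 and sea-2. That of myrf-1 was inside an RNA gene or pseudogene. The nuclear receptor genes nhr-23 and nhr-25 and the zinc finger gene blmp-1 had none, and neither did the 5 seam cell and cuticle genes, col-19, rnt-1, bro-1, apl-1 and mlt-10, whose best pooled rank was 1898 at rnt-1.

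**Figure D5:**
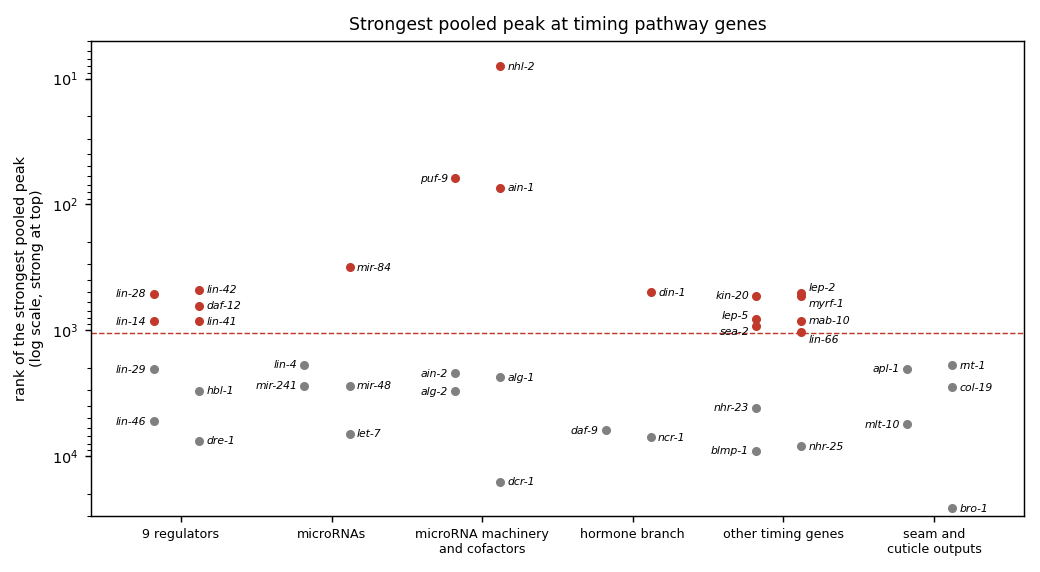
Rank of the strongest pooled peak in the window (y axis, log scale, strong at the top) for the 9 regulators and 5 groups of other timing pathway genes (x axis). Red points are at or above rank 1053 (dashed line) and grey points are weaker; daf-36 and strm-1, with no pooled summit, are not drawn. The red points of the 9 regulators lie between ranks 479 and 852, and nhl-2 at rank 8 is the strongest of the pathway.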

How the data were processed

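ChIP-seq peak lists from 2 biological replicates of 1 group were used. Descriptions deposited with the lists trace each to the alignments of a replicate, or of both pooled, and to 1 shared control, in assembly ce11. For aligner and peak caller, a name is not given in the sources used here. Deposited values were used as they stand: the deposited signal of each peak gave its rank, the deposited −log10 q-value was used to describe peaks, and the deposited peak offset gave the summit. All 1053 peaks of the IDR list were the 1053 strongest of the pooled list. Peaks were joined to the Ensembl release 115 annotation of WBcel235 with 1-based coordinates, and no peak exceeded the chromosome lengths. A pooled peak was matched to the best ranked replicate peak that overlapped it by at least 1 bp, so neighbouring peaks can share a match. The let-7 gene was found through its WormBase ID in RefSeq. With 1 group, no contrast was tested, and window counts were checked on simulated peaks. The genes, the pathway list and the motifs were chosen with earlier results of these data known. Named were all 9 genes, the protein-coding and RNA genes nearest to their strongest peaks, and pathway genes with a reproducible summit. Alternatives changed the window, the overlap rule, the number of peaks and the replicate. Python 3.11.15, numpy 2.4.6, pandas 2.3.3, scipy 1.17.1 and matplotlib 3.10.9 were used.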

Additional observations from a re-analysis of the deposited data

How the results depend on the processing

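The count of 5 regulators with a reproducible summit was also 5 with 10000 bp upstream (against 11.2% of all genes) or 2000 bp (against 4.74%). The count stayed at 5 with peaks counted on any overlap (against 8.02%) and with peaks near tRNA or snoRNA genes left out (against 5.27%). With each peak given to the nearest 5′ end it was 5 as well (against 4.46%). It was 4 in the gene body only, without lin-41 (against 1.97% of all genes, and 7.29% with the full window), and 6 with 2 times as many pooled peaks, with lin-29 added (against 13.2%). It fell to 2 (lin-28 and lin-42, against 3.9% of all genes) with the stronger 50% of the list. It was also 2 (against 4.62%) when a peak had to be among the 1053 strongest of each replicate, which was added once the peaks had been looked at. Replicate 1 alone gave 5 (against 7.33% of all genes), and replicate 2 alone gave 3 (against 7.35%), with lin-41 and daf-12 missing. The density of 5.84 pooled summits per 10 kb was 6.26 with 2000 bp upstream, 5.4 with 10000 bp, 6.37 in the gene body, 3.83 with the stronger 50% of the list (against 1.54 for all genes), and 5.54 to 5.78 with either replicate alone. With 10000 bp upstream the best pooled rank of hbl-1 was 1127 and that of dre-1 was 3461, ahead of lin-46 at 5298. No paired analysis was possible because there is 1 group. Without reads, the depth behind a weak peak is unknown.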
